A study of Mus musculus with 11 samples.

Results

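The transferrin receptor gene Tfrc and 8 other genes that move iron through a cell were followed in mouse CD4 T cells that carried a mutant FoxP3, normal FoxP3 or an empty vector. All probe sets annotated with exactly 1 of the symbols Tfrc, Slc11a2, Steap3, Fth1, Ireb2, Aco1, Slc40a1, Hmox1 and Slc25a37 were taken, together with the array's 3 control probe sets for Tfrc. These 9 genes, of 18194 named on the array, gave 23 of its 45101 probe sets. Tfrc had 6 of them, 3 ordinary probe sets and the 3′, 5′ and middle (M) controls, and the other 8 genes had 17. A probe set that named a member together with a second gene was left out (1 probe set). No probe set was removed for a low value, and all 23 were tested.

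The groups were R397W FoxP3 (2 arrays), A384T FoxP3 (3 arrays), wild-type (WT) FoxP3 (3 arrays) and mock, the MIGR1 retroviral vector without FoxP3 (3 arrays). FoxP3 is the forkhead transcription factor of regulatory T cells, and both substitutions lie in its forkhead domain, which binds DNA. All 4 groups began as naive CD4 T cells (CD25-, CD45RB high) isolated out of BALB/cA spleen and lymph nodes. They were stimulated with anti-CD3e at 0.5 µg/ml and IL-2 at 10 ng/ml on feeder spleen cells irradiated with 20 Gy, infected with MIGR1-based virus after 24 hr, and sorted for high GFP on day 7. Every group, mock included, therefore had the activation, the virus and the sort in common, and the sources used here give neither the age of the mice nor a statement that arrays of 1 group came from separate cultures. The spread behind each p-value is therefore that among arrays, and it may be technical only.

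Each value is on the log2 scale, with the mock median of that probe set (3 arrays) set to 0, so levels of different genes cannot be compared and the presence of T cell markers cannot be read. The number of arrays limits the precision, and the median standard error (SE) of a difference was 0.139, or 0.155 where R397W was involved. The Foxp3 probe set 1420765_a_at differed between WT and mock by 0.037 ± 0.15 (SE, adjusted p = 0.976). Its differences from mock were 0.27 ± 0.15 with A384T (adjusted p = 0.579) and -0.27 ± 0.17 with R397W. R397W over A384T was -0.53 ± 0.17 (adjusted p = 0.215), and none of these was called. The overlap of its probes with the transduced FoxP3 was not tested, so the level of each transduced FoxP3 could not be read here. The median of 14 probe sets of T cell markers lay between -0.17 and 0.26 on the 11 arrays, with single markers changed both ways. The adhesion molecule Cd2 was higher with A384T (0.61 ± 0.10, adjusted p = 0.0102) and with WT (0.62 ± 0.10, adjusted p = 0.00834) than with mock. The costimulatory receptor Cd28 was lower with A384T than with mock at 1 of 2 probe sets (-0.96 ± 0.16, adjusted p = 0.0112). Its other probe set was not called (-0.47 ± 0.30, adjusted p = 0.653). The receptor Cd5 was lower with WT than with mock (-0.47 ± 0.10, adjusted p = 0.0417, a call kept in 2 of 11 fits that each left out 1 array). A probe set was called changed at an adjusted p under 0.05 in limma (Benjamini-Hochberg over all 45101 probe sets). The T cell marker calls were 14.3% of the list in WT over mock, against 2.66% of all probe sets. In A384T over mock they were 14.3%, against 2.16%.

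Transferrin receptor 1 binds iron-loaded transferrin at the cell surface and carries it into endosomes, where STEAP3 reduces the iron and the transporter DMT1 (Slc11a2) passes it to the cytosol. Activated T cells are known to raise this receptor before they divide, and it is used as an activation marker (CD71). Iron not in use is stored in ferritin, of which Fth1 encodes the heavy chain, and leaves the cell through ferroportin (Slc40a1). When iron is scarce, the iron regulatory proteins, encoded by Aco1 and Ireb2, bind iron-responsive elements in mRNAs; this stabilises Tfrc mRNA and blocks translation of ferritin mRNA.

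Tfrc is also known as a target of hypoxia-inducible factors, and its promoter is shown because Hif1a and Epas1, which encode 2 such factors, were among the other iron genes that changed below. The RefSeq window of Tfrc shown here (assembly GRCm38.p6, chr16:32608646-32608945, plus strand) runs from 250 bases before to 50 bases after the start. The capitals mark ACGTG, the core letters bound by these factors.
Tfrc: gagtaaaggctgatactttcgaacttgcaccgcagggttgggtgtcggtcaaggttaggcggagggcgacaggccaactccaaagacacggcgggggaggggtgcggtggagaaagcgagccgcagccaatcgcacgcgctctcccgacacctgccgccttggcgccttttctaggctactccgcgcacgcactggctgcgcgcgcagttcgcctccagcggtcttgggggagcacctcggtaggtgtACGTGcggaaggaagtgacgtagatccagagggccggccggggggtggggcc
ACGTG, searched on both strands, occurred in 19.6% of the 32851 promoter windows of this length. The E box CACGTG (7.15% of windows, and itself a match to ACGTG), the antioxidant response letters TGACNNNGC (12.4%), the STAT letters TTCNNNGAA (8.3%) and the forkhead letters TGTTTAC (3.65%), searched likewise, were not found in the Tfrc window. Another Tfrc window, chr16:32608872-32609171, overlaps it and holds the same ACGTG and none of the other letters named here. Windows were at hand for 5 of the 9 genes, and among these the forkhead letters occurred in a Steap3 window, at position -15 from its start. These matches describe letters and are not evidence of binding.

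Tfrc was higher in cells with WT FoxP3 than in mock cells at all 6 probe sets, by 1.57-fold to 4.25-fold. It was also high in A384T cells, at lower values than in WT cells, with 2 of 6 probe sets passing the test against mock. The R397W arrays gave values near those of mock, and all 6 probe sets were lower in R397W than in WT cells, by 1.74-fold to 3.92-fold. In bulk RNA, more cells with the transcript and more transcript per cell cannot be told apart.

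The ordinary probe set 1422966_a_at had -0.46 and 0.22 on the R397W arrays, 0.91, 1.42 and 0.66 on the A384T arrays, 1.86, 2.21 and 1.47 on the WT arrays, and -0.76, 0.045 and 0 on the mock arrays. All WT arrays lay above all A384T arrays, and all A384T arrays lay above every R397W and mock array. The probe set 1452661_at had 0.22 and -0.026 with R397W, 1.34, 1.32 and 0.73 with A384T, 2.11, 1.87 and 1.49 with WT, and 0, -0.41 and 0.038 with mock. It gave the same order of groups, without overlap between A384T and WT. The probe set 1422967_a_at had 0 and -0.58 with R397W, 0.71, 0.91 and 0.70 with A384T, 1.5, 1.57 and 1.34 with WT, and -0.28, 0.53 and 0 with mock. Here mock array 2 was the highest of the mock arrays and came close to the lowest A384T array.

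The control probe sets are taken from 3 places along the Tfrc transcript. The 3′ control had -0.064 and -0.038 with R397W, 0.77, 1.13 and 0.50 with A384T, 1.74, 2.02 and 1.39 with WT, and -0.041, 0.062 and 0 with mock. The 5′ control had 0.014 and 0.094 with R397W, 0.39, 0.75 and 0.76 with A384T, 1.18, 0.82 and 0.69 with WT, and -0.099, 0.028 and 0 with mock. At this end of the transcript the A384T and WT arrays overlapped. The M control had -0.061 and -0.27 with R397W, 0.12, 0.21 and 0.14 with A384T, 0.51, 0.86 and 0.53 with WT, and 0, 0.039 and -0.092 with mock, the narrowest spread of the 6. Across the 11 arrays, the 15 pairs of Tfrc probe sets had Pearson correlations between 0.780 and 0.963 (median 0.908), which describe probe sets that share 1 transcript and the same arrays.

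**Figure D1:**
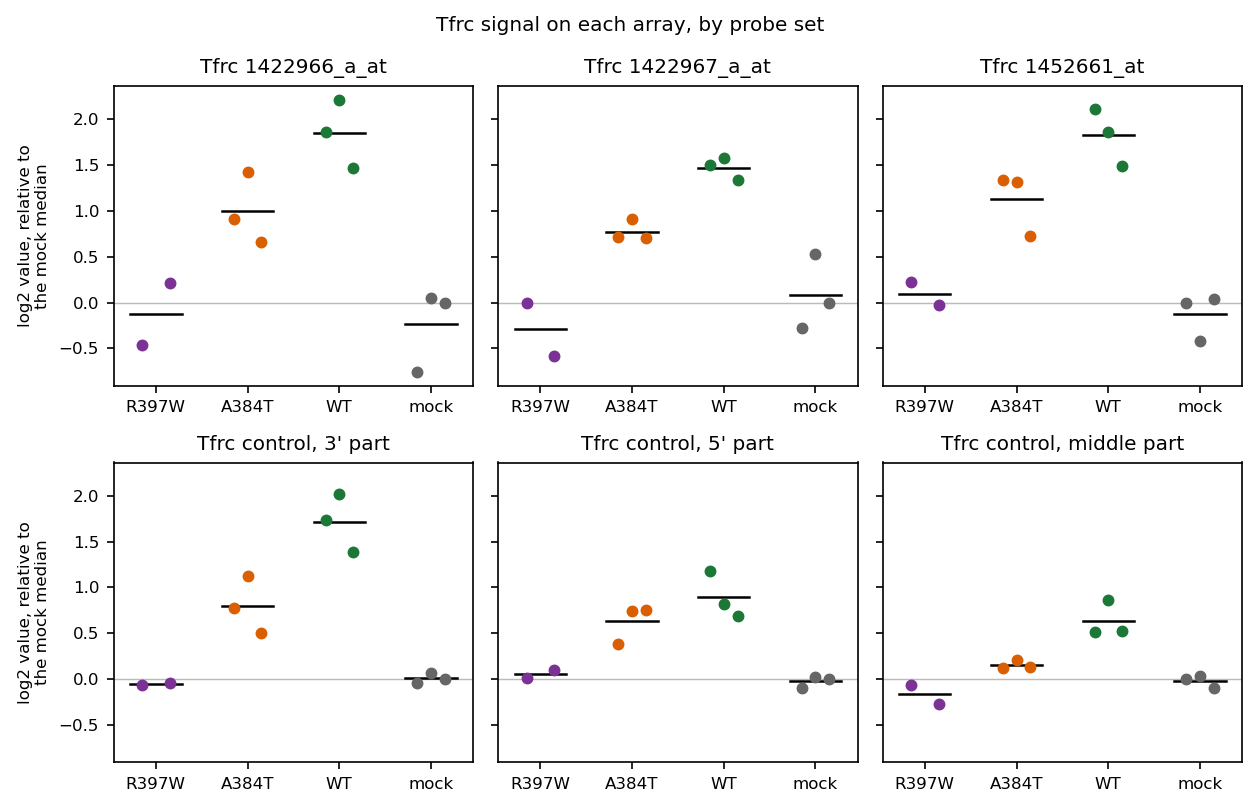
Log2 value of each of the 6 Tfrc probe sets on every array, relative to the mock median, by group (points are arrays, lines are group means). WT arrays are highest at the 3 ordinary probe sets and at the 3′ and M controls, A384T arrays lie between, and R397W arrays lie near mock.

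Against mock, WT cells were higher by 2.09 ± 0.29 on the log2 scale at 1422966_a_at (adjusted p = 0.00398), by 1.39 ± 0.21 at 1422967_a_at (adjusted p = 0.00564) and by 1.95 ± 0.21 at 1452661_at (adjusted p = 0.000881). The controls were higher by 1.71 ± 0.18 at the 3′ end (adjusted p = 0.000748), 0.92 ± 0.14 at the 5′ end (adjusted p = 0.00735) and 0.65 ± 0.11 in the middle (adjusted p = 0.0132). All 6 Tfrc probe sets were thus called higher, against 1.49% of all probe sets (2.66% called in either direction). The WT and mock arrays did not overlap at any of the 6, which was so in this direction at 7.41% of all probe sets.

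Against mock, A384T cells were called higher at 1452661_at by 1.25 ± 0.21 (adjusted p = 0.0125) and at the 5′ control by 0.65 ± 0.14 (adjusted p = 0.0476). These 2 of 6 stand beside 1.25% of all probe sets called higher and 2.16% called in all. The differences at 1422966_a_at (1.24 ± 0.29, adjusted p = 0.0664), the 3′ control (0.79 ± 0.18, adjusted p = 0.0536), 1422967_a_at (0.69 ± 0.21, adjusted p = 0.156) and the M control (0.17 ± 0.11, adjusted p = 0.67) missed the threshold. Blocked by array number, 4 of 6 were called (3.9% of all probe sets were called higher under this fit), and the adjusted p became 0.00216 at 1422966_a_at and 0.00295 at the 3′ control. All A384T arrays exceeded all mock arrays at each of the 6 probe sets, which held in this direction for 7.33% of all probe sets. The count of 2 depended on single arrays: none was called without A384T array 2, and 1 was called without A384T array 1, either R397W array or any mock array.

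R397W cells had 0 of 6 Tfrc probe sets called against mock, where limma called 0.0% of all probe sets and 1.84% had an unadjusted p under 0.05, none of them of Tfrc. The differences were 0.12 ± 0.33 at 1422966_a_at, -0.37 ± 0.23 at 1422967_a_at, 0.22 ± 0.24 at 1452661_at, -0.058 ± 0.20 at the 3′ control, 0.078 ± 0.16 at the 5′ control and -0.15 ± 0.13 at the M control. Signs were split, with 3 positive and 3 negative, and the sign at 1422966_a_at turned to -0.15 without mock array 1 and to -0.22 without R397W array 2.

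Against WT, R397W cells were lower by 1.97 ± 0.33 at 1422966_a_at (difference -1.97, adjusted p = 0.0143), with differences of -1.76 ± 0.23 at 1422967_a_at (adjusted p = 0.00382) and -1.73 ± 0.24 at 1452661_at (adjusted p = 0.00489). The controls differed by -1.77 ± 0.20 at the 3′ end (adjusted p = 0.00191), -0.84 ± 0.16 at the 5′ end (adjusted p = 0.0283) and -0.80 ± 0.13 in the middle (adjusted p = 0.0117). All 6 were called lower, against 0.996% of all probe sets (1.75% in either direction), and no R397W array reached a WT array, as at 10.4% of all probe sets in this direction. With 1 R397W array left, fewer Tfrc probe sets were called: 3 without R397W array 1 and 2 without R397W array 2. Without WT array 2 the count was 4.

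A384T and WT cells were compared to see whether the lower A384T values exceeded the spread between arrays. The differences were -0.85 ± 0.29 at 1422966_a_at (adjusted p = 0.928), -0.69 ± 0.21 at 1422967_a_at (adjusted p = 0.682), -0.70 ± 0.21 at 1452661_at (adjusted p = 0.725), -0.92 ± 0.18 at the 3′ control (adjusted p = 0.173), -0.26 ± 0.14 at the 5′ control (adjusted p = 1.00) and -0.48 ± 0.11 at the M control (adjusted p = 0.379). None of the 6 was called, where 0.102% of all probe sets were. At an unadjusted p under 0.05 there were 5 of 6 (4.1% of all probe sets), and at 5 of 6 the WT and A384T arrays did not overlap, with A384T lower (3.49% of all). Blocked by array number, the 3′ control alone was called (adjusted p = 0.00915), where 0.271% of all probe sets were called lower.

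R397W against A384T gave differences of -1.12 ± 0.33 at 1422966_a_at (adjusted p = 0.18), -1.07 ± 0.23 at 1422967_a_at (adjusted p = 0.0571), -1.03 ± 0.24 at 1452661_at (adjusted p = 0.0726), -0.85 ± 0.20 at the 3′ control (adjusted p = 0.0803), -0.58 ± 0.16 at the 5′ control (adjusted p = 0.152) and -0.32 ± 0.13 at the M control (adjusted p = 0.39). None of 6 was called, where 1.47% of all probe sets were, although all 6 had an unadjusted p under 0.05 (10.2% of all) and no overlap, with R397W lower (10.4% of all). The block gave 4 called lower, the 3 ordinary probe sets (adjusted p = 0.00769, 0.0161 and 0.00634 for 1422966_a_at, 1422967_a_at and 1452661_at) and the 3′ control (adjusted p = 0.00297), where 3.06% of all probe sets were called lower. Leaving out A384T array 3 gave 2 calls, and leaving out mock array 1 or 2 gave 1.

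Averaging the 6 Tfrc probe sets within each array gave -0.059 and -0.10 with R397W, 0.71, 0.96 and 0.58 with A384T, 1.48, 1.56 and 1.15 with WT, and -0.20, 0.048 and -0.0091 with mock. No A384T array reached a WT array, and none came down to a mock or R397W array. In a fit of 18193 genes, each as the mean of its probe sets, Tfrc differed by 1.45 ± 0.13 between WT and mock (adjusted p = 0.00013), 0.80 ± 0.13 between A384T and mock (adjusted p = 0.00583), -0.027 ± 0.15 between R397W and mock (adjusted p = 1.00) and -0.65 ± 0.13 between A384T and WT (adjusted p = 0.112). R397W differed from WT by -1.48 ± 0.15 (adjusted p = 0.000333) and from A384T by -0.83 ± 0.15 (adjusted p = 0.0119). In this fit A384T over mock and R397W over A384T passed the threshold. With each gene read instead through its most variable probe set (1422966_a_at for Tfrc), neither passed, at adjusted p = 0.0554 for A384T over mock and 0.156 for R397W over A384T. The WT, A384T and R397W contrasts with mock use the same 3 mock arrays.

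The size of the Tfrc difference varied among the control probe sets but did not follow their order along the transcript. WT over mock was 1.71 at the 3′ control, 0.65 at the M control and 0.92 at the 5′ control. The reason was not tested. The 3′ minus the 5′ Tfrc control was -0.078 and -0.13 with R397W, 0.39, 0.38 and -0.26 with A384T, 0.57, 1.19 and 0.71 with WT, and 0.058, 0.034 and 0 with mock. All 3 WT arrays lay above every array of the other groups. The same difference for the beta-actin (Actb) controls was 0.48 and -0.05 with R397W, 0.20, -0.19 and -0.13 with A384T, 0.17, -0.067 and -0.098 with WT, and 0.33, -0.07 and 0.026 with mock. The Gapdh controls lay between -0.14 and 0.11 on all arrays, and the Pcx controls between -0.71 and 0.24. None of these 3 controls set the WT arrays apart. Their part in the Tfrc 3′ to 5′ difference was not tested.

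Cells that divide carry more transferrin receptor, and cell cycle genes (67 probe sets of 30 genes) moved partly with Tfrc. Their median was 0.12 and -0.00093 with R397W, 0.67, 0.31 and 0.084 with A384T, 0.88, 0.16 and 0.13 with WT, and 0.026, 0 and 0 with mock. The arrays numbered 1 of WT and A384T were highest, and the other WT and A384T arrays lay between 0.084 and 0.31. The median difference of the list was 0.40 in WT over mock and 0.36 in A384T over mock. The mean of the 6 Tfrc probe sets was 1.48, 1.56 and 1.15 on WT arrays 1, 2 and 3. In WT over mock the cell cycle list had 2 of 67 probe sets called higher, both of Mcm5, a subunit of the replicative helicase (1.95 ± 0.42, adjusted p = 0.0378, at 1415945_at and 1.77 ± 0.33, adjusted p = 0.0184, at 1436808_x_at). This was 2.99% of the list, against 1.49% of all probe sets. Blocked by array number, 19 of 67 were higher in WT than in mock (3.99% of all probe sets) and 17 in A384T than in mock (3.9%), while 18 were lower in R397W than in WT (3.07%) and 12 lower in R397W than in A384T (3.06%). Without the arrays numbered 1, Tfrc differences between WT and mock were 0.72 to 1.87 over the 6 probe sets, with 2 of 6 called (adjusted p between 0.026 and 0.105). Whether the cell cycle genes account for any of the Tfrc difference was not tested.

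**Figure D2:**
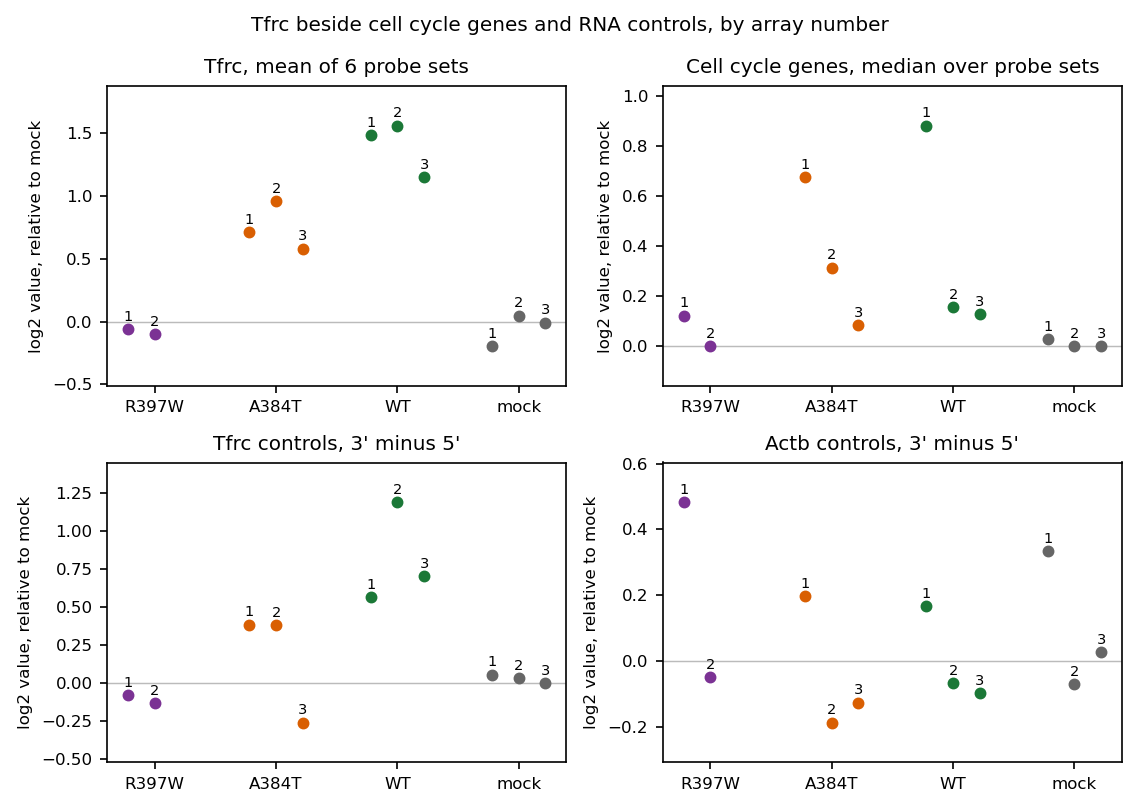
Values on every array, labelled by array number, for the mean of the 6 Tfrc probe sets, the median of the cell cycle list, and the 3′ minus 5′ control difference of Tfrc and of Actb (log2 scale). Tfrc separates WT from mock on every array, the cell cycle median is highest on WT array 1 (0.88) and A384T array 1 (0.67), and the Tfrc 3′ minus 5′ difference is highest on the WT arrays.

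The other 8 genes gave 0 calls at their 17 probe sets in each of the 6 comparisons by limma. At an unadjusted p under 0.05 there were 4 of 17 in R397W over A384T (10.2% of all probe sets), 3 in A384T over mock (11.6%), 3 in R397W over WT (9.92%), 2 in R397W over mock (1.84%), 1 for WT over mock (11.3%) and none between A384T and WT (4.1%). The differences ran from -0.33 to 0.27 in WT over mock (median -0.057, against -0.013 over all probe sets) and from -0.39 to 0.39 for A384T over mock (median -0.026, against -0.0069). They ran from -0.36 to 0.29 in R397W over mock (median 0.011, against 0.0039) and from -0.32 to 0.51 for R397W over WT (median 0.013, also over all probe sets). The widest range, -0.46 to 0.56, was that of R397W over A384T. The 95% intervals of the WT to mock differences together spanned -0.67 to 0.88, or 1.59-fold lower to 1.84-fold higher. For R397W they were wider, at -1.15 to 0.76 against WT (2.21-fold lower to 1.70-fold higher) and -1.28 to 0.98 against A384T (2.44-fold lower to 1.97-fold higher). The widest belonged to Fth1 1427021_s_at.

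**Figure D3:**
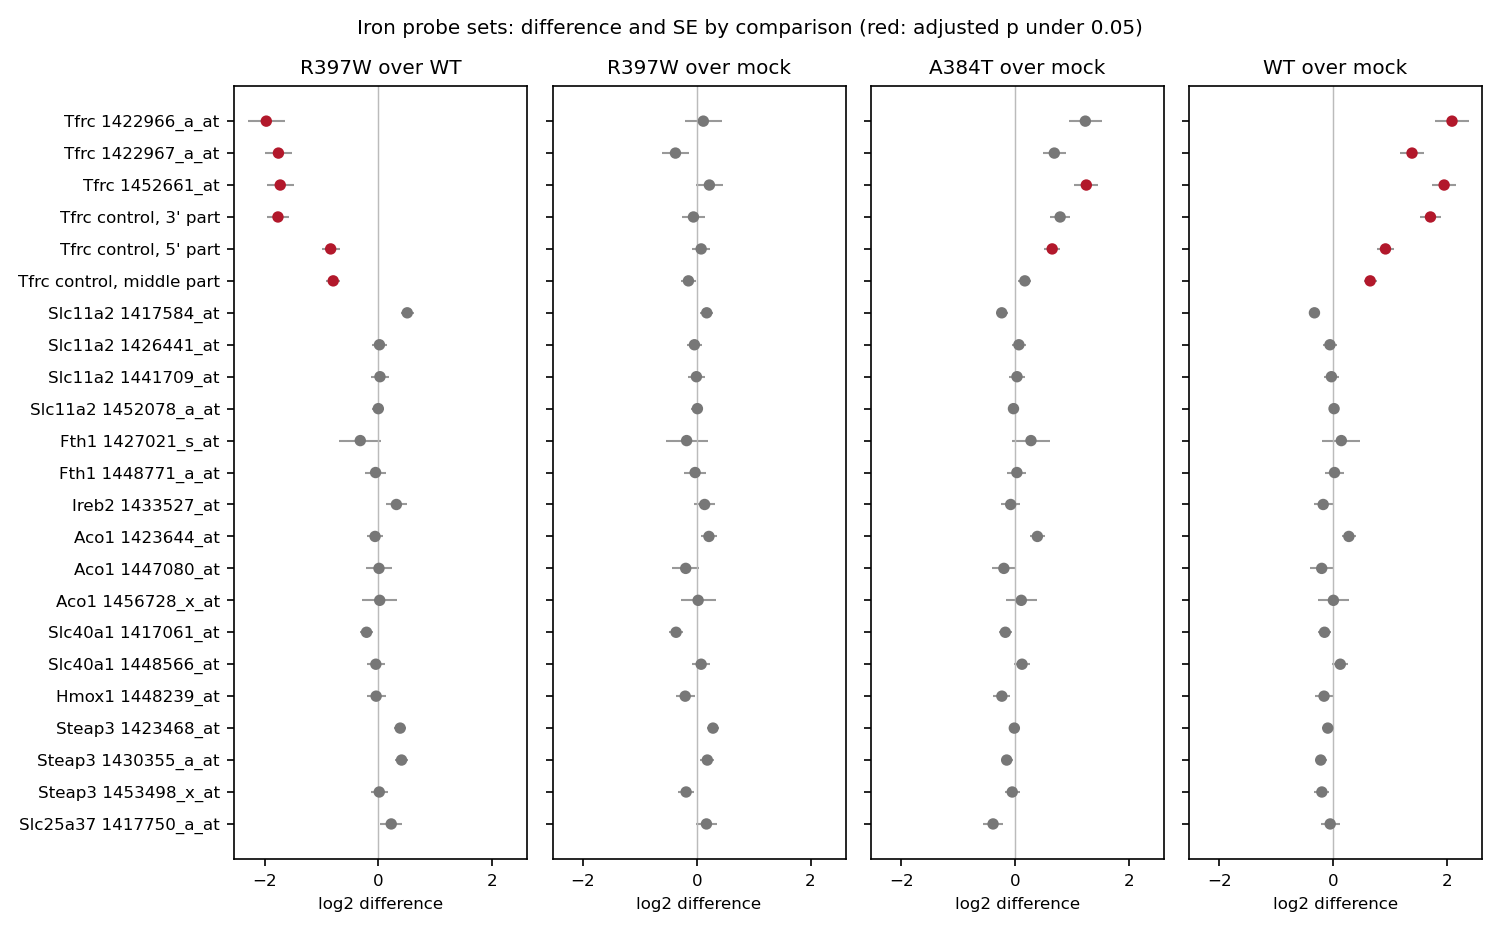
Log2 difference with its SE for each of the 23 probe sets in R397W over WT, R397W over mock, A384T over mock and WT over mock. Red marks an adjusted p under 0.05, reached by all 6 Tfrc probe sets in R397W over WT and likewise in WT over mock, by 2 in A384T over mock, and by no probe set of the other genes.

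Among the genes of uptake, Slc11a2, which encodes the endosomal iron transporter DMT1, had 4 probe sets. Slc11a2 1417584_at had 0.10 and 0.26 with R397W, -0.19, -0.36 and -0.13 with A384T, -0.47, -0.27 and -0.23 with WT, and 0.073, 0 and -0.053 with mock. The WT and A384T arrays all lay below the mock and R397W arrays, the reverse of the direction at Tfrc, but WT and A384T overlapped here. In the opposite direction, WT arrays lay wholly above mock at 7.41% of all probe sets and A384T arrays at 7.33%. The difference at 1417584_at was -0.33 ± 0.10 in WT over mock (adjusted p = 0.181) and 0.51 ± 0.12 in R397W over WT (adjusted p = 0.0683). R397W over WT at this probe set was the only result among the 8 genes that passed when blocked by array number (adjusted p = 0.0327, where 2.74% of all probe sets were called higher). The other 3 Slc11a2 probe sets did not show it.

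Steap3, the ferrireductase of the same endosomes, had 3 probe sets that disagreed. Steap3 1423468_at had 0.22 and 0.27 with R397W, -0.10, -0.064 and 0.015 with A384T, -0.21, 0 and -0.19 with WT, and -0.16, 0 and 0.041 with mock. Both R397W arrays lay above all others. In the opposite direction, R397W arrays lay wholly below WT at 10.4% of all probe sets. R397W differed from WT by 0.38 ± 0.11 (adjusted p = 0.152) at 1423468_at, by 0.41 ± 0.12 (adjusted p = 0.186) at 1430355_a_at, and by 0.013 ± 0.15 at 1453498_x_at. Probe sets with the ending _x_at can bind related sequences.

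For storage, Fth1 1427021_s_at had -0.94 and 0.087 with R397W, -0.40, 0.25 and 0.26 with A384T, -0.61, 0.17 and 0.13 with WT, and -0.76, 0 and 0.02 with mock. The array numbered 1 was the lowest in every group, and the groups overlapped. The difference between WT and mock was 0.14 ± 0.33 here and 0.023 ± 0.17 at 1448771_a_at. Ferritin heavy chain has many processed pseudogenes, and the _s_at ending marks probes that match more than 1 transcript, so Fth1 values are uncertain.

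Of the iron sensors, Ireb2 encodes iron regulatory protein 2, and Ireb2 1433527_at had 0.36 and 0.08 with R397W, 0.06, 0.066 and -0.10 with A384T, 0.06, -0.14 and -0.20 with WT, and 0.46, -0.21 and 0 with mock. The groups overlapped, and WT differed from mock by -0.18 ± 0.16 (adjusted p = 0.832). Aco1, which encodes the cytosolic aconitase that serves as iron regulatory protein 1, had at 1423644_at 0.21 and 0.23 with R397W, 0.57, 0.36 and 0.27 with A384T, 0.36, 0.22 and 0.25 with WT, and 0.23, -0.21 and 0 with mock. All A384T arrays lay above mock there, as at 7.33% of all probe sets in this direction. The difference was 0.39 ± 0.13 (adjusted p = 0.193), and WT over mock was 0.27 ± 0.13 (adjusted p = 0.455). The other Aco1 probe sets did not show it, and their groups overlapped mock. A384T over mock was -0.20 ± 0.21 at 1447080_at and 0.11 ± 0.28 at 1456728_x_at, and WT over mock was -0.20 ± 0.21 and 0.0034 ± 0.28. These proteins are known to be regulated after translation, which arrays do not measure.

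The exporter ferroportin, Slc40a1, had at 1417061_at -0.29 and -0.41 with R397W, -0.15, -0.17 and -0.17 with A384T, -0.24, -0.049 and -0.14 with WT, and -0.17, 0.20 and 0 with mock. R397W was lowest at this probe set, with a difference from mock of -0.36 ± 0.12 (unadjusted p = 0.0134, adjusted p = 1.00 in limma). At the other Slc40a1 probe set, 1448566_at, R397W and mock overlapped, with a difference of 0.078 ± 0.16. Hmox1, the heme oxygenase that frees iron from heme, had at 1448239_at -0.22 and 0.14 with R397W, -0.14, -0.064 and -0.0032 with A384T, 0.01, -0.0032 and -0.0032 with WT, and -0.031, 0.52 and 0 with mock. Mock array 2 stood above all others, and WT differed from mock by -0.16 ± 0.15 (adjusted p = 0.832). Slc25a37 encodes mitoferrin 1, which carries iron into mitochondria. Slc25a37 1417750_a_at had 0.20 and 0.12 with R397W, -0.35, -0.15 and -0.69 with A384T, 0.24, -0.12 and -0.31 with WT, and 0.14, -0.17 and 0 with mock. The A384T arrays were low but overlapped WT, and A384T differed from mock by -0.39 ± 0.17 (adjusted p = 0.418). Both R397W arrays lay above all A384T arrays, by 0.56 ± 0.19 on average (unadjusted p = 0.0149, adjusted p = 0.281 in limma), the largest difference of the 17 probe sets. In the opposite direction, R397W arrays lay wholly below A384T at 10.4% of all probe sets.

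Beyond these genes, 7 lists of iron and heme genes (uptake, storage, export and hepcidin signalling, sensing and mRNAs with iron-responsive elements, mitochondrial iron and iron-sulfur clusters, heme synthesis, heme breakdown and transport) held 116 measured genes with 247 probe sets. In WT over mock 4 were called higher and 5 lower (3.64%, against 2.66% of all probe sets), and in A384T over mock 1 higher and 7 lower (3.24%, against 2.16%). None was called between R397W and mock. R397W cells had 4 higher and 2 lower than WT (2.43%, against 1.75% of all probe sets) and 4 higher than A384T (1.62%, against 1.47%). A384T cells had 1 lower than WT (0.405%, against 0.102%). The median difference over the 247 was -0.0093 in WT over mock and -0.0045 in A384T over mock. Blocked by array number, 16 were higher and 13 lower with WT than with mock, where 3.99% and 3.69% of all probe sets were, and 17 were higher and 15 lower with A384T than with mock, where 3.9% and 3.46% of all probe sets were. The block gave 3 lower in A384T than in WT, where 0.271% of all probe sets were. It gave 10 higher and 16 lower in R397W than in WT, where 2.74% and 3.07% of all probe sets were. Between R397W and A384T it gave 11 each way, where 1196 of all 45101 probe sets were higher and 1382 lower in R397W.

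In the iron-sulfur list (57 probe sets), Isca1, an assembly factor of mitochondrial iron-sulfur clusters, was lower at both of its probe sets. Isca1 1423651_at had 0.23 and 0.15 with R397W, -0.80, -0.77 and -0.71 with A384T, -1.08, -1.03 and -0.79 with WT, and 0.20, 0 and -0.072 with mock. All WT and A384T arrays lay well below all R397W and mock arrays. It fell by 1.01 in WT cells (difference -1.01 ± 0.11, adjusted p = 0.000837) and by 0.80 in A384T cells (-0.80 ± 0.11, adjusted p = 0.00374), and it was higher in R397W than in WT cells by 1.16 ± 0.12 (adjusted p = 0.00128). At Isca1 1423652_at the WT difference was -0.98 ± 0.18 (adjusted p = 0.0196) and the A384T difference -0.90 ± 0.18 (adjusted p = 0.0334). The calls at 1423651_at against mock held without any 1 array, and those at 1423652_at held in 7 of 11 such fits for WT (lost without mock array 2 or 3 or WT array 1 or 3) and in 4 of 11 for A384T (kept without WT array 1 or 2 or either R397W array).

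In the same list, Fdx1, the ferredoxin that donates electrons to mitochondrial enzymes, was lower with A384T. It had 0.073 and 0 with R397W, -0.42, -0.58 and -0.61 with A384T, 0.19, 0.20 and 0.19 with WT, and -0.0076, 0.087 and 0 with mock. The A384T arrays lay below every other array. A384T was lower than mock (-0.56 ± 0.09, adjusted p = 0.00685) and than WT (-0.73 ± 0.09, adjusted p = 0.0149), the 1 call of the 7 lists between A384T and WT. The call against WT was lost without any WT array, A384T array 2 or A384T array 3. When blocked by array number, Epas1 1435436_at (-1.04, adjusted p = 0.0292) and Id1 (-1.42, adjusted p = 0.0439) were also called lower in A384T than in WT.

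In the list of sensing and iron-responsive-element genes (24 probe sets), Epas1 and Hif1a, which encode the hypoxia-inducible factor subunits HIF-2α and HIF-1α, changed in opposite directions. Epas1 1435436_at had 0.43 and 0.17 with R397W, -3.65, -3.17 and -2.93 with A384T, -2.43, -2.44 and -1.76 with WT, and 0.13, 0 and -0.038 with mock. It was lower with WT (-2.24 ± 0.21, adjusted p = 0.00046) and with A384T (-3.28 ± 0.21, adjusted p = 7.64e-05) than with mock. Epas1 1449888_at was lower by less, -0.65 ± 0.11 with WT (adjusted p = 0.0124) and -0.62 ± 0.11 with A384T (adjusted p = 0.0186). Hif1a 1416035_at had 0.18 and 0.27 with R397W, 0.43, 0.75 and 0.84 with A384T, 1.01, 0.98 and 1.28 with WT, and -0.082, 0 and 0.13 with mock. It rose with WT (1.08 ± 0.13, adjusted p = 0.0016) and A384T (0.66 ± 0.13, adjusted p = 0.0281). The other 3 Hif1a probe sets had differences of 0.75, 0.62 and 1.24 in WT over mock and missed the threshold, which 2 of them passed when blocked by array number (adjusted p = 0.0416 at 1427418_a_at and 0.000329 at 1448183_a_at). In A384T over mock the same 3 differed by 0.22, 0.36 and 0.75 (adjusted p = 0.791, 0.863 and 0.354 in limma). Their A384T arrays overlapped mock, and 1448183_a_at alone passed when blocked (adjusted p = 0.00796). The A384T call at 1416035_at was kept in 6 of 11 fits that each left out 1 array, being lost without any mock array, A384T array 2 or A384T array 3. The Epas1 1449888_at calls were lost without mock array 1 or WT array 2 for WT, and without mock array 1 or 3 or A384T array 1 or 2 for A384T.

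In the export list (40 probe sets), Id1, a target of the BMP signal that also drives hepcidin in liver, had -0.31 and 0.10 with R397W, 1.44, 0.59 and 0.72 with A384T, 1.81, 2.60 and 2.59 with WT, and -0.27, 0 and 0.17 with mock. It was higher with WT than with mock by 2.37 ± 0.27 (adjusted p = 0.00118) and lower in R397W than in WT by a difference of -2.44 ± 0.30 (adjusted p = 0.00294). The A384T arrays lay between WT and mock without overlap (0.95 ± 0.27 over mock, adjusted p = 0.132).

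In the heme lists, the synthesis enzyme Uros rose with WT at 1 of 2 probe sets (0.61 ± 0.13, adjusted p = 0.0339). The porphyrin exporter Abcg2 also rose (0.76 ± 0.12, adjusted p = 0.008), and the biliverdin reductase Blvrb fell, with a difference of -0.97 ± 0.20 (adjusted p = 0.0315). Blvrb had -0.12 and 0.16 with R397W, -1.13, -0.75 and -0.56 with A384T, -1.14, -0.77 and -0.81 with WT, and -0.25, 0.43 and 0 with mock. In A384T over mock, Keap1, the cytosolic sensor that restrains NRF2, was lower at 1 of 2 probe sets (-0.40 ± 0.09, adjusted p = 0.0466). In the uptake list (44 probe sets), Cd44, a hyaluronan receptor that can carry bound iron into cells, was lower with A384T at 1 of 4 probe sets (-0.93 ± 0.20, adjusted p = 0.0455), and the storage list (18 probe sets) had no call. Abcg2 was called in each of the 11 fits that left out 1 array, but the others were close to the threshold. Keap1 was called in none of these fits (adjusted p between 0.0584 and 0.155) and Cd44 in 2, those without WT array 2 or 3. Uros was called in 3, those without WT array 3 or A384T array 1 or 3. Blvrb was called in 5, those without mock array 1, A384T array 1 or 3, or either R397W array. Blocked by array number, Blvrb was also lower with A384T than with mock (-0.88, adjusted p = 0.00139).

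**Figure D4:**
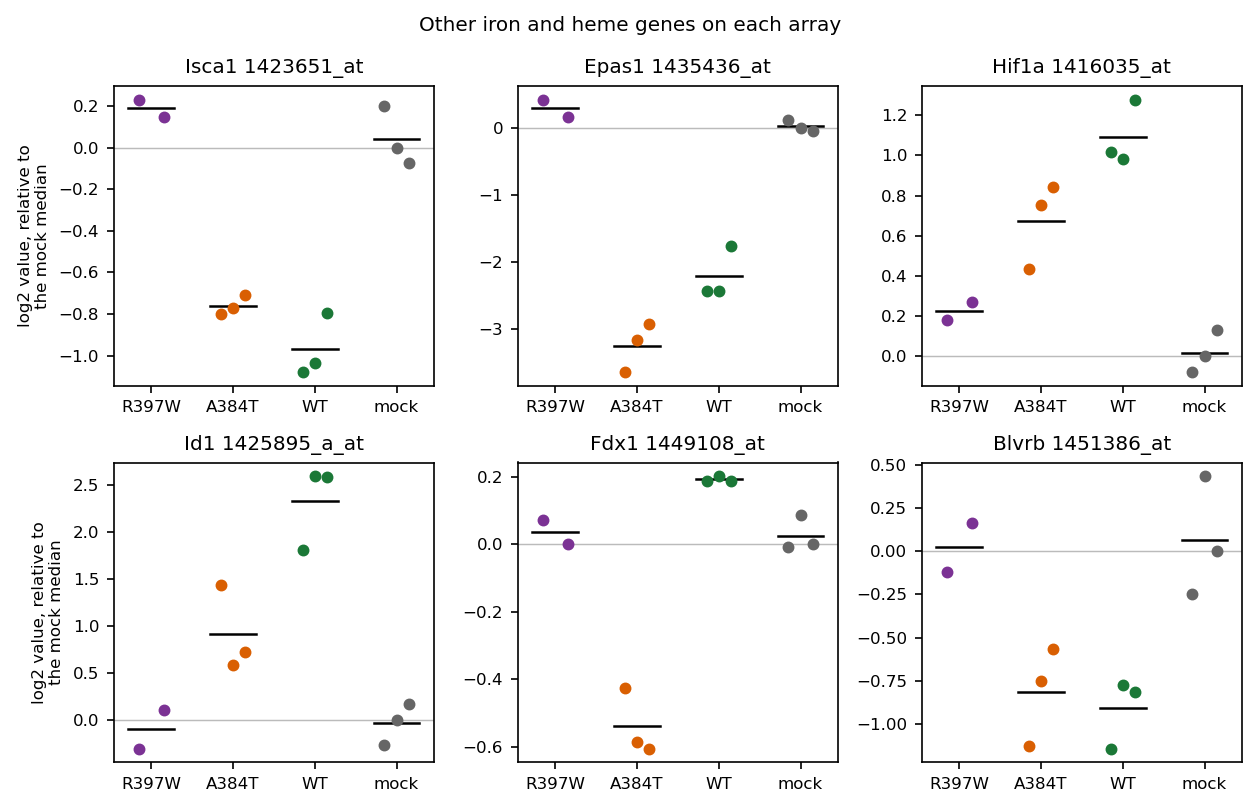
Log2 values on every array, relative to the mock median, of Isca1, Epas1, Hif1a, Id1, Fdx1 and Blvrb (points are arrays, lines group means). WT and A384T arrays lie below R397W and mock for Isca1, Epas1 and Blvrb and above mock for Hif1a and Id1, and Fdx1 is lowest in A384T.

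Erythroid precursors and macrophages also handle much iron, and the feeder spleen cells could bring others, so markers of other cell types were read on the same arrays. Of 13 erythroid probe sets, Gata1 1449232_at alone was called. This was 7.69% of the list, against 1.49% of all probe sets called higher in WT over mock and 1.25% in A384T over mock. Gata1 had -0.55 and -0.42 with R397W, 2.27, 1.90 and 1.95 with A384T, 2.41, 2.23 and 1.95 with WT, and 0, -0.23 and 0.17 with mock, a difference of 2.22 ± 0.15 in WT over mock (adjusted p = 8.08e-05) and 2.06 ± 0.15 in A384T over mock (adjusted p = 0.000154). The median of the erythroid list stayed between -0.11 and 0.067 on all arrays. The macrophage list (26 probe sets) had a median between -0.048 and 0.054, and Adgre1 was lower with A384T than with mock (-1.13 ± 0.19, adjusted p = 0.0132), a call lost without A384T array 2. It was 3.85% of that list, against 2.16% of all probe sets called in either direction. Among 23 probe sets of B cell markers, 2 of the 11 of Ighm, the immunoglobulin heavy chain, were called higher with A384T than with mock. Their differences were 0.92 ± 0.17 (adjusted p = 0.0189) at 1427329_a_at and 0.65 ± 0.14 (adjusted p = 0.0492) at 1427351_s_at. These calls were 8.7% of the list, against 1.25% of all probe sets called higher. The other Ighm probe sets were not called, with differences from -0.35 to 0.076. The list median lay between -0.098 and 0 on all arrays. Leaving out 1 array at a time kept the call at 1427329_a_at in 7 of 11 fits and that at 1427351_s_at in 2. The median of 15 probe sets of dendritic cell markers lay between -0.095 and 0.073. The part of these cells in the Tfrc difference was not tested.

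Among the 18309 ordinary probe sets with 1 symbol other than Tfrc and an SD at or above the median of all probe sets, those most like the mean of the 3 ordinary Tfrc probe sets over the 11 arrays were of Tube1 and Larp1b (both Pearson r = 0.99), Elovl6 (0.98), then Dennd4a, Hbegf, Nabp1, Afdn and Npc2 (0.97 each). Tdrp, Rfxap, Cxcr6 and Tmem141 were the most opposite (-0.98 each). These correlations are ranked from many and share the arrays and the 4 groups, so they describe the group pattern. Elovl6, a fatty acid elongase, was 3.28 above mock in WT cells, 2.23 in A384T cells and 0.16 in R397W cells. Hbegf, a growth factor of the EGF family, differed from mock by 3.86 with WT, 2.93 with A384T and -0.052 with R397W. The chemokine receptor Cxcr6 differed from mock by -3.25 with WT, -1.89 with A384T and 0.15 with R397W. For all 3, the R397W mean lay near mock and the A384T mean between mock and WT. For Hbegf the A384T and WT arrays overlapped, with the highest A384T array at 3.45 and the lowest WT array at 3.24.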

How the data were processed

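RNA from 11 arrays, 1 per sample, was measured on Affymetrix mouse arrays. Per the submitters' processing notes, the deposited values come from RMA, which gives log2 values; its version and the genome build are not given in the sources used here. The median of the 3 mock arrays was 0 at all 45101 probe sets, so values had been centred on mock. No source used here states this centring or the log base, which was taken as 2. Symbols came from the platform annotation (34958 probe sets with 1 symbol, 932 with several, 9211 with none). Array medians lay between -0.016 and 0.0022.

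Probe sets were fitted with limma 3.58.1 (R 4.3.3), 1 mean per group with all 11 arrays, and 6 contrasts were tested with eBayes (7 residual degrees of freedom) and Benjamini-Hochberg adjustment over 45101 probe sets. Tables and figures used Python 3.11.15, pandas 2.3.3 and matplotlib 3.10.9. The fit was tested on simulated data. Deviations of same-numbered arrays from their group means correlated at 0.107 to 0.718 over 15 pairs (-0.696 to 0.343 over 30 pairs of different number). Deviations cancel out within each group, so these ranges are not independent of each other. Because of the same-number correlations, the array numbers of the sample titles were taken as pairs in a blocked alternative. Centring, trend and robust priors, subsets of groups or probe sets, and omitted arrays were also tried. Members, lists and the rules for named genes were chosen with earlier results of these data known. Other genes named are those called in a list, and the 8 most and 4 least correlated with Tfrc.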

Additional observations from a re-analysis of the deposited data

How the results depend on the processing

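The 23 iron probe sets gave 6 calls each for WT over mock and R397W over WT, 2 for A384T over mock, and 0 each for A384T over WT, R397W over A384T and R397W over mock. With the array number as a replicate block the counts were 4 in A384T over mock, 1 in A384T over WT and 4 in R397W over A384T, and in R397W over WT Slc11a2 1417584_at was added; the block changed no other call among these 23. Fitting only the 2 groups compared gave 1 in A384T over mock and 3 in R397W over WT, and 5 Tfrc probe sets in WT over mock. A trend with a robust prior gave 0 in A384T over mock, and 5 Tfrc probe sets in R397W over WT. Restricting the fit to probe sets with 1 symbol gave 1, and leaving out probe sets of low SD gave 2, in R397W over A384T. Each of these 2 restrictions gave 3 Tfrc probe sets in A384T over mock. Without the arrays numbered 1 there were 0 in A384T over mock, 2 for WT over mock and 1 for R397W over WT. Leaving out 1 array at a time gave 2 to 6 for R397W over WT, 5 to 6 for WT over mock, 0 to 3 for A384T over mock, 0 to 2 for R397W over A384T, and 0 throughout for R397W over mock and A384T over WT. Fewer arrays or fewer probe sets are part of these alternatives; otherwise the cause was not tested. Of 108 recomputed Tfrc probe set results per comparison, 2 changed direction, both at 1422966_a_at in R397W over mock (-0.15 without mock array 1 and -0.22 without R397W array 2; range over single arrays left out, -0.22 to 0.45), and Tfrc as a mean of its probe sets gave -0.027 there, against 0.12 at its most variable probe set. Of 1458 recomputed results of the other named genes, 291 lost their call and 0 changed direction. With 2 R397W arrays and levels removed by centring, small differences and the signal over background of each probe set could not be resolved.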

Other observations

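Among the array's control probe sets, the 5′ control for 18S ribosomal RNA had 0.59 and 0.34 on the R397W arrays, -0.17, 0.34 and 6.22 on the A384T arrays, 0.018, 0.85 and 2.84 on the WT arrays and 0, 2.42 and -0.26 on the mock arrays (log2, relative to the mock median), so that A384T array 3, WT array 3 and mock array 2 stood far above the others of their groups. The 3′ control for the same RNA stayed between -0.37 and 0.27 on all arrays.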
